A study of Mus musculus with 30 samples.

Results

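The imprinted genes described here are 43 loci of the mouse genome, 35 protein-coding and 8 noncoding, chosen by name as a list of imprinted genes, a rule that uses no measured value. All 43 were found in the RefSeq gene table (GRCm38.p6, the same build as mm10) among 46705 genes of chromosomes 1 to 19, 20554 of them protein-coding. One of them, Nespas, was found as a synonym of the entry Gnasas1. They form 17 loci, of which 10 are clusters of 2 or more listed genes and 7 are single genes. Each gene was placed against a list of replication initiation zones from a single OK-seq library of wild-type E14TG2a, a long-used line of mouse embryonic stem cells kept in LIF with inhibitors of GSK3 and MEK. The cells had been labelled with 10 µM EdU, a thymidine analogue, for 2 min. OK-seq sequences Okazaki fragments, the short pieces of the lagging strand, with their strand, and so shows where forks moving left and forks moving right part. The other 29 samples of the series, from wild-type cells or from a pair of clones of the MCM2_2A histone-binding mutant, were not analysed here. With 1 library there is no replicate and no comparison between groups, so the values below are descriptions without a test.

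Imprinted genes are expressed mainly from the allele of one parent. Their state is set by DNA methylation laid down in the germ line at an imprint control region, which often serves a whole cluster of neighbouring genes, and in several clusters a long noncoding RNA from the unmethylated allele keeps neighbouring genes silent in cis. The parental alleles of many imprinted domains are known to replicate at different times in S phase. The OK-seq list does not separate the alleles, so a zone or its lack applies to the pair of them together.

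Each of the 2844 entries of the list is a zone with a left edge, a right edge and a breakpoint, a bin of 1 kb from which the left and right arms of the zone are measured. No arm exceeds 100 kb, so a longer zone may have been shortened. The widths given are the sum of the arms. A distance to a breakpoint is taken from the midpoint of that bin. A distance to a zone is taken from its edge, and is 0 for a gene end inside. The list gives no read counts, so the depth behind a zone is unknown, and both ends of a gene were counted alike unless a transcription start is named.

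Imprinted genes ranged from wholly inside an initiation zone (12 of 43) to over 100 kb from one (15 of 43), and the clusters differed in this. Genes at large spread as widely. Their distance to a zone reached 99.8 kb at quantile 0.56 of protein-coding genes and 101 kb at quantile 0.48 of all genes. The share wholly inside a zone was not computed for genes at large. An end of 22 of the 43 genes (51.2%, Wilson 95% interval 36.8 to 65.4%) lay within 20 kb of a zone, where 38.5% of all protein-coding genes and 30.4% of genes of all kinds did. An end lay inside a zone for 18 of the 43 (41.9%, 28.4 to 56.7%), against 32.4% of protein-coding genes and 24.8% of all 46705 genes. The same 18 had any base of a zone in their body, against 32.9% of protein-coding genes and 25.1% of all genes. Both intervals treat genes as independent and cover counting error only. Neighbours in a cluster share their zone, so these intervals are too narrow, and even so each holds the value of protein-coding genes. Of the 35 protein-coding members, 19 (54.3%) were within 20 kb. Of the 8 noncoding members, 3 (37.5%) were, namely Meg3, Airn and Nespas, against 24.0% of the genes of the table that are not protein-coding, and the same 3 had an end inside a zone, against 18.9%. The median imprinted gene lay 18.02 kb from a zone, against 70.3 kb for a protein-coding gene and 111.8 kb for a gene of any kind. The 95% interval of the members' median, from 0 to 101 kb, holds the value of protein-coding genes, and with 1 value per locus, that of its nearest gene, the median was 0. Just inside the 20 kb limit stood Rasgrf1, at 18.02 kb, and just outside it Slc22a3, at 22.0 kb. Counted by locus, 10 of the 17 loci had a gene end within 20 kb of a zone and 9 had one inside. Values by locus take the nearest of up to 7 genes, so larger clusters are called more readily. No matching value for genes at large was computed, so the count and the median by locus have no background.

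**Figure D1:**
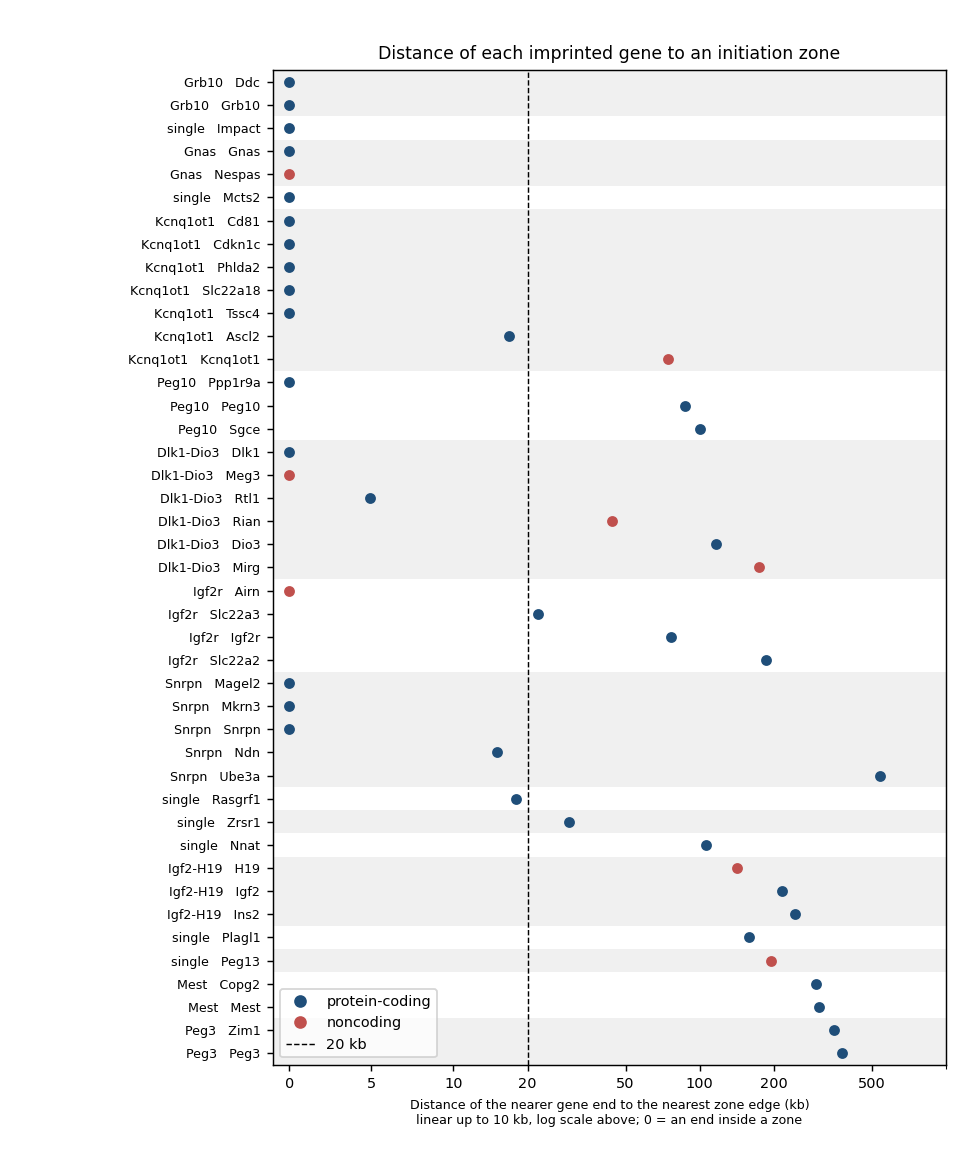
Distance of the nearer end of each of the 43 imprinted genes to the nearest initiation zone edge in kb (linear up to 10 kb, log scale above), grouped by locus, with blue points for protein-coding and red points for noncoding genes; the dashed line marks 20 kb. The 18 genes at 0 have an end inside a zone, and Ube3a is the farthest, at 539 kb.

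**Figure D2:**
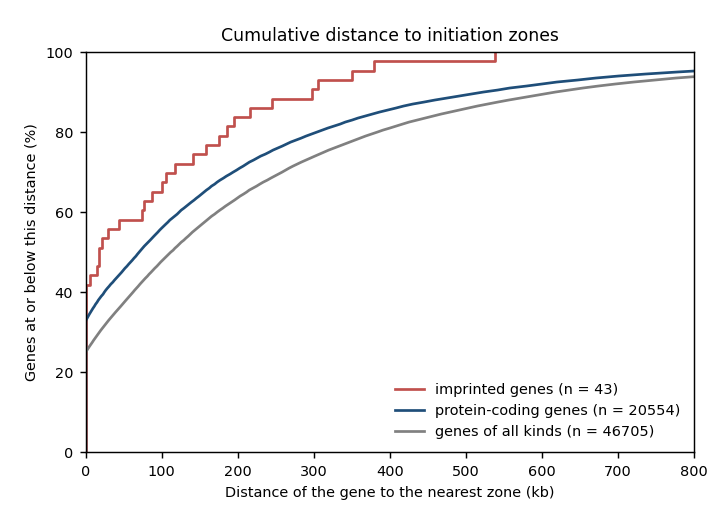
Share of genes in percent (y axis) whose body lies at or below a given distance in kb (x axis) from the nearest zone, for the 43 imprinted genes, the 20554 protein-coding genes and all 46705 genes. The curve of the imprinted genes reaches 50% at 18.02 kb, that of protein-coding genes at 70.3 kb and that of genes of all kinds at 111.8 kb.

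The clusters differed from each other in a plain way. At the Kcnq1ot1, Grb10 and Gnas clusters most or all listed genes were in or next to a zone, at the Snrpn, Dlk1-Dio3, Peg10 and Igf2r clusters zones covered part of the cluster, and the Igf2-H19, Peg3 and Mest clusters had no listed gene within 100 kb of a zone. The clusters are taken in that order, after the starts of transcription that mark the extremes.

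The starts of 6 genes show the range from closest to a breakpoint to farthest from any zone, and their promoters differ in CpG, the dinucleotide that carries imprint methylation. The sequences are from RefSeq (GRCm38.p6), 250 bases before to 50 after a start, 5′ to 3′ on the strand of the gene, with each CG in capitals. The 3 starts nearest a breakpoint were those of Ddc (chr11:11898095-11898394, minus strand, 8.36 kb from the breakpoint), Cd81 (chr7:143052500-143052799, plus strand, 14.2 kb) and a start inside Snrpn (chr7:60047929-60048228, minus strand, 15.5 kb).
Ddc: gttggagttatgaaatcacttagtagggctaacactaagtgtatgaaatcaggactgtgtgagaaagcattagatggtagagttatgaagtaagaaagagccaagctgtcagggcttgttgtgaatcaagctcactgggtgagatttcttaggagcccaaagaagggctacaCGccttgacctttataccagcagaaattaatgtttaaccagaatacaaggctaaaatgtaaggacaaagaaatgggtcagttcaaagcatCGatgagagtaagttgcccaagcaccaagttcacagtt
Cd81: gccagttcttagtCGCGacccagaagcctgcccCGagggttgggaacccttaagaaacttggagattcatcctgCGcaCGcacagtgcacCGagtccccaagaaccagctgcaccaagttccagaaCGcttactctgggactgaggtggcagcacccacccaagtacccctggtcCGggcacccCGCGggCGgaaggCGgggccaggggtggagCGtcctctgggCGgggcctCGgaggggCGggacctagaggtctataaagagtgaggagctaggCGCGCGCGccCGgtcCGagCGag
Snrpn: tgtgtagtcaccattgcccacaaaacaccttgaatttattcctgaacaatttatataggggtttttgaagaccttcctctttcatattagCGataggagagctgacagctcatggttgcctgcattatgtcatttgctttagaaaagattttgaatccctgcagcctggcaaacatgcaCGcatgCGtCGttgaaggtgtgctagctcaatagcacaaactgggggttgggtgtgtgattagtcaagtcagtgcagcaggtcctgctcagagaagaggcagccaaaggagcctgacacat
The 3 starts farthest from a zone were those of Ube3a (chr7:59228500-59228799, plus strand, 539 kb), Peg3 (chr7:6730370-6730669, minus strand, 406 kb) and Zim1 (chr7:6696383-6696682, minus strand, 372 kb).
Ube3a: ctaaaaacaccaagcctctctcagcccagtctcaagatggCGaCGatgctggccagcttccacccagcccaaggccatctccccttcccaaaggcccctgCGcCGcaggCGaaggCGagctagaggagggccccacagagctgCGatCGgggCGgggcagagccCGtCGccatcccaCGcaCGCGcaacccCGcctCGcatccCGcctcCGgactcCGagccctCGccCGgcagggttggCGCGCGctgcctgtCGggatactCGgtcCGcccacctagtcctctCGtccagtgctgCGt
Peg3: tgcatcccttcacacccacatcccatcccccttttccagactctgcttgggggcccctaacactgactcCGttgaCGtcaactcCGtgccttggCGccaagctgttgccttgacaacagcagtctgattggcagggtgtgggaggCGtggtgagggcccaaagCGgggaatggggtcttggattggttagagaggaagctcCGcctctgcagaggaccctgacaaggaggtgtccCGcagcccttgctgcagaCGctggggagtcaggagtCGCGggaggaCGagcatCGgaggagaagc
Zim1: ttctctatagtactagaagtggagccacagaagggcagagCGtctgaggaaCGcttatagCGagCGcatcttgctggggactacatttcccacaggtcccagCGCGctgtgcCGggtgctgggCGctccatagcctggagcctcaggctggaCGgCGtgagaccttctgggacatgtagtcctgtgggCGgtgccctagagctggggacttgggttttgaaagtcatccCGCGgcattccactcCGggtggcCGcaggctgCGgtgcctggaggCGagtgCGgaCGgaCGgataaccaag
The promoter of Ddc held 2 CpG, that of Cd81 23 and that of Snrpn 4, while those of Ube3a, Peg3 and Zim1 held 29, 13 and 20. The CpG-rich Cd81 promoter near a breakpoint and the CpG-poor Ddc promoter beside another show that both kinds occurred at the near end of this range.

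The Kcnq1ot1 cluster on chromosome 7 was bracketed by a pair of zones, with the noncoding RNA gene itself between them. The zone from 142986001 to 143139000 (152 kb wide, with a left arm of 52 and a right arm of 100 kb) held Cd81 (143052750 to 143067930), which encodes a tetraspanin, and Tssc4 (143068416 to 143071093). Both lay wholly to the right of its breakpoint at 143038001 to 143039000, with their nearer ends 14.2 and 29.9 kb away. That breakpoint fell in R74862. Ascl2 (142966822 to 142969264), a transcription factor gene of the trophoblast, lay outside the left edge of this zone by 16.7 kb. The second zone, from 143445001 to 143544000 (98 kb), held 3 listed genes. They were Cdkn1c (143458339 to 143461059), an inhibitor of cyclin-dependent kinases and of fetal growth, Slc22a18 (143473726 to 143499334), a transporter gene, and Phlda2 (143501545 to 143503145), which limits placental growth. Their nearer ends lay 60.4, 22.2 and 18.4 kb left of the breakpoint at 143521001 to 143522000, and that breakpoint fell in the body of Nap1l4. All 3 lay on its long left arm of 76 kb, the right arm being 22 kb.

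Kcnq1ot1 (143213111 to 143296547), the noncoding RNA that silences this cluster on the paternal allele, was the member of its cluster farthest from a zone. It lay 74.1 kb from the zone on its left and 148 kb from the zone on its right, in a zone-free stretch of 306 kb. Its start, at 143296547, faced the right-hand zone. Its host gene Kcnq1 (143106877 to 143427050), a potassium channel gene read from the opposite strand as background knowledge has it, reached back into the first zone with an end 68.4 kb from the breakpoint.

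**Figure D3:**
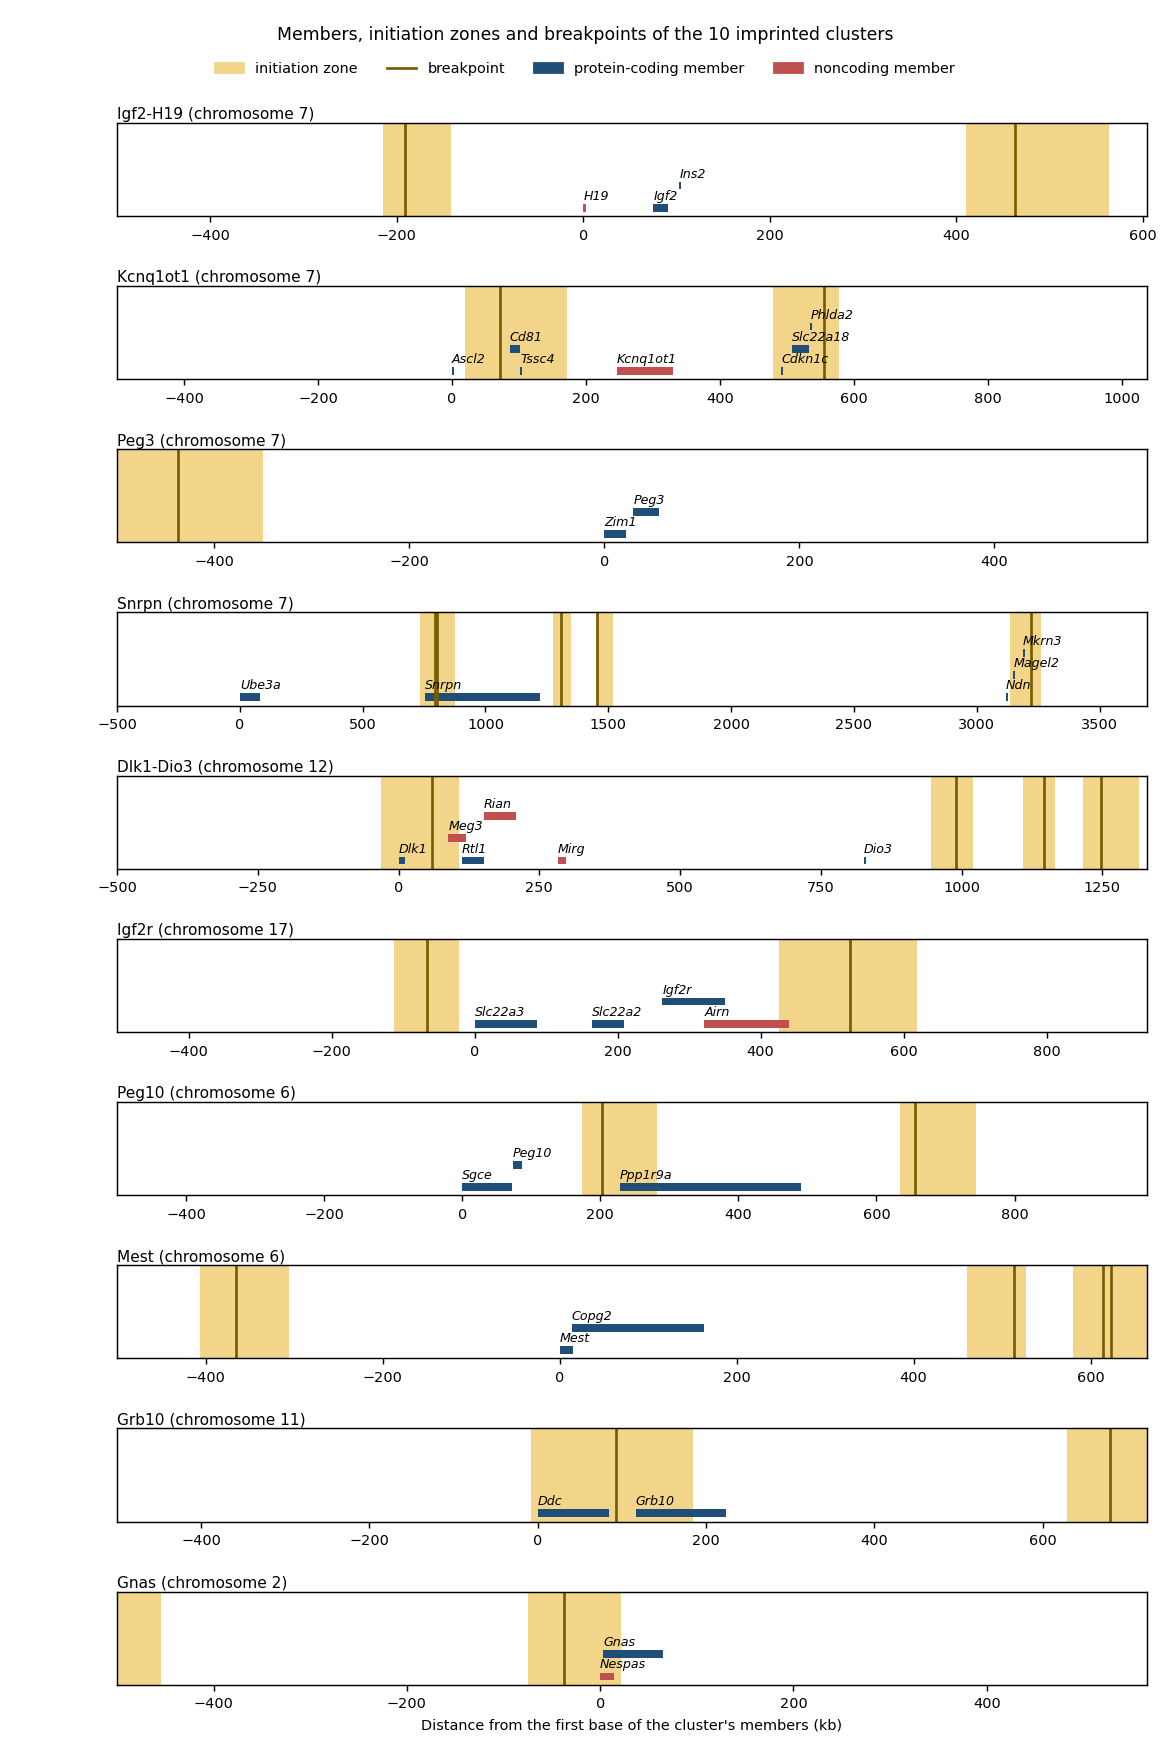
Maps of the 10 imprinted clusters to scale, each with 500 kb on both sides (x axis, kb from the first base of the cluster's listed genes; the scale differs between panels), with zones as yellow bands, breakpoints as brown lines, protein-coding genes in blue and noncoding genes in red; height only separates labels. No zone touches the listed genes of Igf2-H19, Peg3 or Mest, and the map of Peg3 shows a zone on the left side only, while the 192 kb zone of the Grb10 cluster spans Ddc and 64.1% of Grb10.

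At the Grb10 cluster on chromosome 11 a single wide zone took in both listed genes. It ran from 11806001 to 11999000 (192 kb, wider than 98.1% of all zones), with arms of 100 and 92 kb. Ddc (11814101 to 11898144), which encodes the decarboxylase that makes dopamine and serotonin, lay wholly left of the breakpoint at 11906001 to 11907000. Its start was 8.36 kb from that breakpoint, the smallest distance for an end or start of any listed gene. Grb10 (11930499 to 12037428), an adaptor that restrains growth signalling by the insulin receptor, lay to the right with 64.1% of its body in the zone. The 2 starts of Grb10 in the promoter table lay outside it, at 29.0 and 38.4 kb from the edge, so that the zone covered the downstream part of the gene.

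At the Gnas cluster on chromosome 2 the zone from 174207001 to 174303000 (95 kb) held an end of both genes. Nespas (174281237 to 174295436), the antisense RNA of the cluster, lay wholly inside. Gnas (174284320 to 174346744), which encodes the stimulatory G protein subunit and several alternative products, had 29.9% of its body in the zone. The starts of Gnas were divided by the zone edge. Its first start, at 174284320, lay inside the zone and 40.8 kb from the breakpoint at 174243001 to 174244000. The other 3 starts, from 174327749 to 174330006, lay 24.7 to 27.0 kb outside. Since reads of Okazaki fragments carry no transcript identity, the overlapping sense and antisense genes share these values.

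The Snrpn cluster, the region of the Prader-Willi and Angelman syndromes, spanned 3191 kb of chromosome 7 and held the only listed gene with a breakpoint in its body. Snrpn (59982495 to 60450177), which encodes a small nuclear ribonucleoprotein, carried both breakpoints of an interval listed with a pair of them, at 60022001 to 60023000 and 60032001 to 60033000. That interval ran from 59963001 to 60103000 (139 kb) and covered 25.8% of the gene. The noncoding gene Snhg14, which overlaps Snrpn, also lay over both breakpoints. Across all listed genes this was 1 of 43 with a breakpoint in the body, against 4.2% of protein-coding genes and 2.7% of all genes. Of the 8 noncoding members 0 had one (Wilson upper bound 32.4%), against 1.52% of genes that are not protein-coding. Of the 4 Snrpn starts in the promoter table, those at 60005199 and 60047978 lay inside the interval, 17.3 and 15.5 kb from a breakpoint. Those at 60140225 and 60450177 lay 37.2 and 52.8 kb from a zone.

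Past Snrpn, zones from 60503001 to 60575000 (71 kb) and from 60677001 to 60747000 (69 kb) held no listed gene. Of the intronless genes at the far end of this cluster, Magel2 and Mkrn3 shared the zone from 62365001 to 62489000 (123 kb). Magel2 (62376979 to 62381640) and Mkrn3 (62417593 to 62420153), which encode a ubiquitin ligase regulator and a ubiquitin ligase, lay wholly inside, 66.9 and 28.3 kb left of the breakpoint at 62448001 to 62449000. Ndn (62348277 to 62349928), the necdin gene, lay 15.1 kb outside the left edge, and on its other side no zone was listed for 1601 kb. Ube3a (59228750 to 59310837), the ubiquitin ligase gene of Angelman syndrome, was the listed gene farthest from any zone. It had 539 kb to the zone on its left and 652 kb to the zone on its right. The zone on its left, 121 kb wide, had its breakpoint inside Atp10a, the neighbouring phospholipid flippase gene. Of the 4 paternally expressed genes of this cluster, Snrpn, Magel2 and Mkrn3 had an end in a zone and Ndn did not, nor did maternally expressed Ube3a. This cluster also had the lowest gene density of the 17 loci, with 2.39 protein-coding genes per Mb in its window.

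The Dlk1-Dio3 cluster on chromosome 12 had a zone at its Dlk1 end that reached into Meg3, and none over Rian and Mirg, the noncoding RNA genes further along. The zone from 109421001 to 109560000 (138 kb) had its breakpoint at 109511001 to 109512000, between Dlk1 and Meg3 and in the bodies of Gm34081 and Gm34017. Dlk1 (109452485 to 109463336), a Notch-like growth regulator expressed from the paternal allele, lay wholly on the left arm, 48.2 kb from the breakpoint. Meg3 (109540996 to 109571729), the maternally expressed noncoding RNA, lay on the right arm with its start 29.5 kb from the breakpoint and 61.8% of its body in the zone. Distance to the zone then grew along the cluster. Rtl1 (109564900 to 109604418), a retrotransposon-derived gene needed in the placenta, lay 4.90 kb outside the right edge. Rian (109603945 to 109661716) and Mirg (109734981 to 109749458), hosts of small RNAs, lay 43.9 and 175 kb outside it. Dio3 (110279230 to 110281097), the enzyme gene that inactivates thyroid hormone, lay nearer to the next zone, 117 kb to its right. The zone-free stretch between the zones measured 838 kb. Rtl1 is read from the strand opposite to the overlapping noncoding RNAs, as background, and the list cannot separate them.

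At the Igf2r cluster on chromosome 17 the tail of the noncoding RNA alone reached a zone. Airn (12741311 to 12859884), whose transcription silences the cluster on the paternal allele, had its downstream end in the zone from 12846001 to 13039000 (192 kb, with its breakpoint in Acat2). That zone covered 11.7% of Airn, and the start of Airn, at 12741311, lay 105 kb from it. Igf2r (12682406 to 12769706), the receptor that clears the growth factor IGF2, lay 76.3 kb from the same zone. The organic cation transporter genes Slc22a2 (12584189 to 12628489) and Slc22a3 (12419972 to 12507704) lay nearer to a zone on the other side, at 186 and 22.0 kb. All 3 protein-coding genes were in one zone-free stretch of 448 kb.

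The Peg10 cluster on chromosome 6 had a zone over the start of Ppp1r9a, to the right of Peg10 and Sgce. Ppp1r9a (4902872 to 5165661), which encodes neurabin, an actin-binding protein of synapses, had its start in the zone from 4848001 to 4957000 (108 kb), 26.5 kb right of the breakpoint, and 20.6% of its body in that zone. Peg10 (4747306 to 4760517), a retrotransposon-derived gene essential for the placenta, and Sgce (4674350 to 4747204), the epsilon-sarcoglycan gene, lay 87.5 and 101 kb to its left. No zone of chromosome 6 was listed further to the left.

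The Igf2-H19 cluster on chromosome 7 lay in a zone-free stretch of 552 kb that ended at the first zone of the neighbouring Kcnq1ot1 cluster. H19 (142575530 to 142578146), the maternally expressed noncoding RNA, lay 142 kb from the zone on its left, which ran from 142361001 to 142434000 (72 kb). Igf2 (142650768 to 142666816), the fetal growth factor gene, lay 217 kb from it and Ins2 (142678656 to 142679726), an insulin gene, 245 kb. The zone on the right was 408, 319 and 306 kb away from the 3 genes. Ascl2 of the Kcnq1ot1 cluster was at the other end of the same stretch. Window counts of this locus were not low, with 2 zones in 1.10 Mb and 29.0 protein-coding genes per Mb.

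The Peg3 cluster lay in the longest zone-free stretch of the whole list. Peg3 (6703892 to 6730462), a zinc finger gene, lay 379.9 kb and Zim1 (6674444 to 6696540), its zinc finger neighbour, 350.4 kb to the right of a zone that ran from 6136001 to 6324000. To their right no zone was listed before 14592000, so that the stretch measured 8268 kb, the first of 2737 by length, where the median stretch was 508 kb. It held 113 protein-coding genes, 13.7 per Mb, against 8.56 per Mb over chromosomes 1 to 19. Of these 113, 53 were vomeronasal receptor genes and 13 carried a Zfp symbol. Members of both families resemble each other closely, which can leave reads unplaced, and the part of this in the missing zones was not tested.

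At the Mest cluster on chromosome 6, Mest (30733506 to 30748466), a hydrolase gene of mesoderm, lay 306 kb from the zone on its left. Copg2 (30747554 to 30896815), a coatomer subunit gene that overlaps the end of Mest, lay 297 kb from the zone on its right. Both were near the middle of a zone-free stretch of 766 kb. The window of this cluster still held 4 listed breakpoints, the highest density of the 17 loci at 3.44 per Mb. A pair of these breakpoints shared a single interval from 31314001 to 31428000.

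Of the 7 single genes, 2 lay inside a zone. Impact (chromosome 18, 12954690 to 12992950), a regulator of translation, was wholly in the zone from 12911001 to 13032000 (120 kb), 19.2 kb right of a breakpoint in Osbpl1a. Mcts2 (chromosome 2, 152687148 to 152687946), a retrotransposed gene in an intron of H13, was just inside the left edge of the zone from 152686001 to 152846000 (159 kb) and 57.6 kb from its breakpoint. Its start was 1.15 kb from that edge, and the list resolves edges to 1 kb only. H13 itself (152669422 to 152708668) had an end 36.8 kb from the breakpoint, which fell in Gm14162.

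The other 5 single genes were outside zones. Rasgrf1 (chromosome 9, 89909508 to 90026979), a Ras exchange factor gene, had its downstream end 18.02 kb from a zone and its start 135 kb from it. Zrsr1 (chromosome 11, 22972005 to 22976496), a splicing factor-like retrogene in an intron of Commd1, lay 29.5 kb from a zone, and Commd1 lay 21.5 kb from it. Nnat (chromosome 2, 157560078 to 157562525), the neuronatin gene in an intron of Blcap, lay 106 kb away. Plagl1 (chromosome 10, 13090832 to 13131694), a zinc finger factor of growth control, lay 159 kb away. Peg13 (chromosome 15, 72805602 to 72810324), a noncoding RNA in an intron of Trappc9, lay 196 kb from a zone. Peg13 stood near the right end of a zone-free stretch of 3797 kb, rank 17 by length, whereas its host Trappc9 had an end inside the adjoining zone.

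In all, 12 listed zones, or 11 distinct intervals, held a base of an imprinted gene. Their median width was 138.5 kb (quartiles 117 and 154 kb), against 112 kb for all 2844 zones and 116 kb for the 2394 zones that held an end of a protein-coding gene. Wider zones hold more genes by their size alone. The longer arm was 1.78 times the shorter in the median, against 1.64 times for all zones. Of the 18 genes with an end inside a zone, 12 had their whole body inside, a share not computed for genes at large. Of the same 18, only Snrpn had a breakpoint in its body, and a gene body without one is the usual case, since 4.2% of protein-coding genes and 2.7% of all genes hold one.

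**Figure D4:**
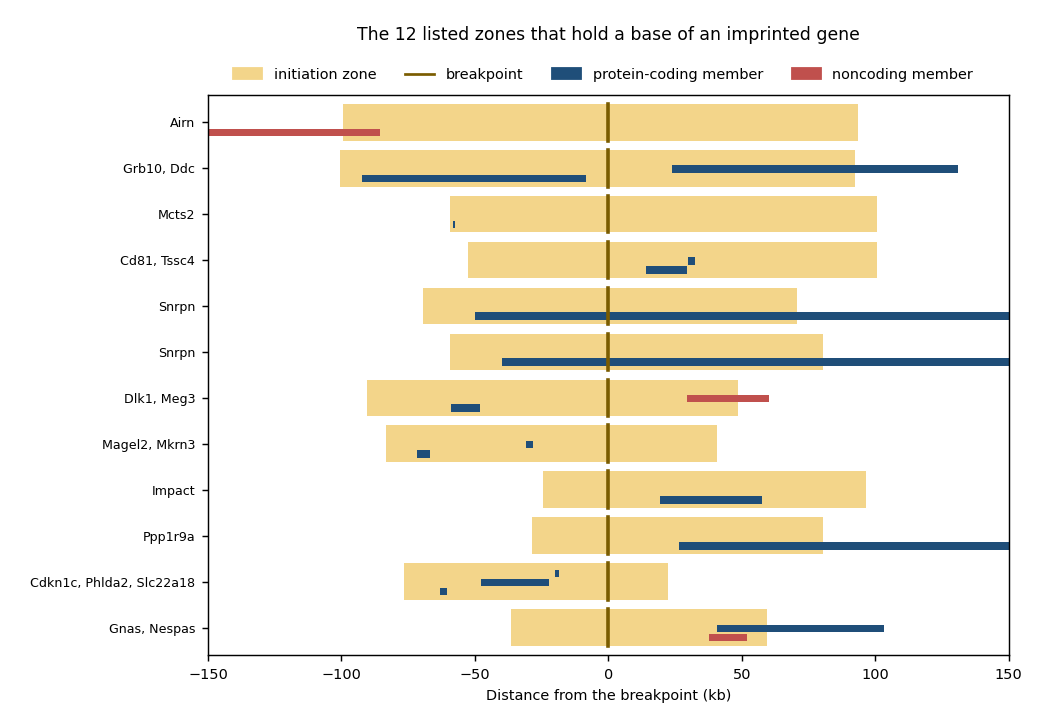
The 12 zones that hold a base of an imprinted gene, ordered by width and aligned at the breakpoint (x axis, kb from the breakpoint; bodies that run past 150 kb are clipped), with zones as yellow bars and gene bodies in blue (protein-coding) or red (noncoding). Gene bodies lie to one side of the brown breakpoint line in every zone except the pair of rows of Snrpn, which share an interval.

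Transcription starts gave a lower share near zones than gene ends, which follows in part from the measure. The call by gene ends takes the nearer of both ends, a start is a single point, and the sets of genes differ. The share of protein-coding genes was likewise lower, at 33.7% for starts and 38.5% for ends. The promoter table gave a strand and a start for 34 of the 43 genes, 49 starts in all, and the most upstream start of each was used. Of the 34, 14 (41.2%, Wilson 95% interval 26.4 to 57.8%) had this start within 20 kb of a zone, against 30.5% of 25747 genes with a start and 33.7% of the protein-coding ones. It lay inside a zone for 12 (35.3%, 21.5 to 52.1%), against 24.9 and 27.8%. Both intervals hold both background shares. Of these 12 genes, 8 were transcribed away from the nearest breakpoint, the direction in which a fork that starts there moves, and 4 towards it (66.7%, 39.1 to 86.2%), against 58.9% of the 6404 genes with a start inside a zone. Cd81, Tssc4, Phlda2, Mkrn3, Ddc, Meg3, Gnas and Ppp1r9a were read away from the breakpoint. Slc22a18, Magel2, Dlk1 and Mcts2 were read towards it. The interval holds the share of all genes.

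Maternally and paternally expressed genes reached within 20 kb of a zone in equal shares, but the maternal count rested mostly on a single cluster. Of 18 genes taken as maternally expressed, 9 (50%, 29.0 to 71.0%) reached within 20 kb of a zone at one end, and of 24 taken as paternally expressed 12 (50%, 31.4 to 68.6%). Among protein-coding genes 38.5% did, and among all genes 30.4%. Of the 9 maternally expressed genes, 6 belonged to the Kcnq1ot1 cluster and lay in or beside its pair of zones. An end lay inside a zone for 8 maternally (44.4%) and 9 paternally expressed genes (37.5%), against 32.4% of protein-coding genes and 24.8% of all genes. The intervals of both classes hold the shares of protein-coding genes. The median distances to a zone were 19.4 and 23.8 kb. Gnas was left out, since its allele depends on the transcript and tissue. The classes are textbook ones that can vary with tissue, as for Grb10 and Ddc, and allelic expression was not measured in these cells.

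Windows around the loci held somewhat more zones and more genes than the chromosomes at large. Joined where they overlapped, the windows of 500 kb on each side made 16 regions of 22.6 Mb with 36 zones, or 1.59 per Mb (exact Poisson 95% interval 1.12 to 2.21), against 1.18 per Mb over chromosomes 1 to 19. The interval holds the value of the chromosomes. They held 11.0 protein-coding genes per Mb, against 8.56, and the part of gene density in the zone count was not tested. The Gnas window had 0.939 and the Impact window 0.963 zones per Mb, with their genes inside one, while the Mest window had 3.44 with both genes far from one.

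In the median, promoters of the listed genes held more CpG than promoters at large, though the quartiles overlapped. Over the most upstream starts of 34 genes the median was 13 CpG in 300 bases (quartiles 8.25 and 24.5), against 7 (3 and 21) over 25747 genes, and the median GC content was 57.7%, against 53%. The hexamer TGCCGC, the letters bound by ZFP57 when methylated, was searched on both strands in all 49 starts. It was found in 12 (24.5%), against 11.6% of 31395 promoters of the table. Over the most upstream starts it was in 8 of 34 (23.5%), against 11.6% of 25747. No interval was computed for these shares or for the medians, and no background of protein-coding genes alone. The hexamer holds a CG, so promoters richer in CpG can match more often, and the part of this was not tested. The 12 starts belonged to Copg2, Grb10, Igf2, Mcts2, Meg3, Mest, Nnat, Plagl1, Slc22a2, Snrpn and Zim1, with 2 neighbouring starts of Mest sharing their matches. Of these genes, Mcts2, Meg3 and Snrpn had such a start inside a zone. A match describes these windows only.

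Other genes of the imprinted regions, which are not members, were near zones about as often as protein-coding genes at large. Of 33 neighbours and further imprinted genes listed, 32 were found. An end of 13 of these (40.6%, Wilson 95% interval 25.5 to 57.7%) lay within 20 kb of a zone. The share was 38.5% for protein-coding genes and 30.4% for all genes. A breakpoint lay in the body of Nap1l4 and of Atp10a, at 7.92 and 1.36 kb from their nearer ends. That was 2 of the 32 (6.25%, 1.73 to 20.1%), against 4.2% of protein-coding genes and 2.7% of all genes, and the interval holds both. The median distance of the 32 genes to a zone was 69.4 kb, against 70.3 kb for a protein-coding gene.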

How the data were processed

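The samples were wild-type or MCM2_2A mouse embryonic stem cells, and 1 of the 30 had a deposited file used here. The tools named, per the submitters' processing notes, are Picard 2.8.2, SAMtools, BWA 0.7.13, Bowtie, Trim Galore 0.4.2 and bcl2fastq, with build mm10. The calling of zones was not stated in any source read, and the extraction protocol in the labels is that of SCAR-seq, so the isolation of Okazaki fragments is not given either. The deposited list gives distances in bp (no other unit) between bins of 1 kb, and in all 2844 entries the width equalled the sum of the arms. Genes came from RefSeq (GRCm38.p6), 333 on scaffolds left out. Distances, shares and Wilson or exact Poisson 95% intervals were computed with Python 3.11.15, pandas 2.3.3 and SciPy 1.17.1, and the distance code was tested on simulated data. Every listed gene is named, and so is each gene of the proteins that keep imprints. Other genes are named as hosts of listed genes or where a breakpoint lies in their body. The members, clusters, allele classes and lists were chosen with earlier results of these data known. Alternatives changed the distance limit, the zones, the gene point, the members or the window.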

Additional observations from a re-analysis of the deposited data

How the results depend on the processing

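The share of listed genes that ended within 20 kb of a zone stayed inside its interval under 8 other settings, from 37.2% with wide zones (23.4% of protein-coding genes) or with zones whose arms stay below 100 kb (33.3%), to 58.1% at a limit of 50 kb (45.4%). With arms below 100 kb the listed genes were thus near the share of protein-coding genes. With each locus left out in turn, an alternative added after the data were seen, it ran from 44.4% without Kcnq1ot1 to 55% without Igf2-H19. With only the 1429 zones of median width or more, the share with an end inside a zone moved from 41.9 to 27.9% (15.5% of genes of all kinds, 20.1% of protein-coding genes), and the median distance from 18.02 to 175 kb (311 and 254 kb); fewer zones alone lower the one and raise the other. Counting any zone base in place of the breakpoint moved the share with a breakpoint in the body from 2.33 to 41.9% (25.1 and 32.9%). The other 38 of 41 alternatives stayed within the interval of the value or, for loci, within 1.5 times the count. No paired analysis was possible because only 1 library had a file. The depth of that library is unknown, and a missed zone cannot be told apart from an absent one.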

Other observations

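The genes of proteins that keep imprints were placed against the zones in the same way. Of 12 such genes, 7 (58.3%, Wilson 95% interval 32.0 to 80.7%) ended within 20 kb of a zone. This interval holds the 38.5% of protein-coding genes, and 30.4% of all genes were as near. An end lay inside a zone for 5 of the 12 (41.7%, 19.3 to 68.0%), against 32.4% of protein-coding genes and 24.8% of all genes. The interval of these 5 holds both background shares. All 12 are named here, and the list was chosen with earlier results of these data known. Zfp57, which encodes the zinc finger protein that binds methylated imprints, had an end inside a zone and 10.8 kb from its breakpoint, and Dnmt3l, the cofactor of germline methylation, 1.79 kb from one. Uhrf1, Smchd1 and Dnmt3b also had an end inside a zone, and Dnmt1 and Ctcf lay 5.11 and 7.47 kb from one. Trim28, the corepressor recruited by ZFP57, was the farthest of the 12, at 1561 kb. It lies at 13024152 to 13031032 on chromosome 7, in the same zone-free stretch of 8268 kb as Peg3 and Zim1.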
